A study of Mus musculus with 12 samples.

Results

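The Sox, Gata, Klf, Fox and Tbx genes encode 5 families of lineage transcription factors, and they were followed here through tumourspheres of metastatic mouse mammary cancer cells. Members were taken by symbol from GENCODE M21: protein-coding genes named Sox, Gata, Klf or Tbx with a number, or Fox with a letter and a number. The rule named 99 genes, of which 55 were among the 18278 genes in the count files: 9 of 19 Sox, 4 of 6 Gata, 13 of 17 Klf, 24 of 44 Fox and 5 of 13 Tbx genes. The remaining 44 were not analysed here. In every gene of the files the library with the third-highest count had at least 8 counts, so genes with fewer reads are outside the tables.

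Each family is defined by a DNA-binding domain: the HMG box of Sox proteins, the zinc fingers of GATA and KLF proteins, the forkhead of Fox proteins and the T-box. Members of one family bind much the same motif, and which of them is expressed varies with tissue and differentiation state. In the mammary gland Gata3 and Foxa1 are known for the luminal lineage, Sox9 and Sox10 for stem and progenitor cells, Tbx3 for the formation of the gland, and the FoxO proteins as targets that PI3K and AKT signalling keeps out of the nucleus.

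The study examined the role of Nfib, a transcription factor gene, in metastatic colonisation. LM1 and LM9 are cell lines grown from lung metastases of HR1 mammary cancer cells, and they are called parental below. HR1 cells carry a mutant PIK3CA transgene driven by the ubiquitous CAG promoter and had been mutagenised with a piggyBac transposon, so all 4 groups share both. Each line has a group labelled Nfib KO, written LM1KO or LM9KO. These were made from these lines with CRISPR-Cas9 aimed at Nfib and are pools of a few clones each. All cells were grown as tumourspheres, clusters in suspension, from 10000 cells per mL without serum and with EGF and bFGF (growth factors) at 20 ng/mL each, and were collected on day 6. There were 3 libraries per group, 12 in all. Nothing in the labels says that they came from separate cultures, so p-values measure the spread between these samples.

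Library totals were 29249075 to 37162594 counts. Levels are given as CPM, a gene's count relative to the library total, after TMM scaling, and 3 counts correspond to 0.0807 to 0.103 CPM of the unscaled total, a limit that covers counting error only. The label was checked first on Nfib mRNA, which was no lower where the label says KO. It stood at 196, 217 and 241 CPM in LM1, 238, 238 and 228 CPM in LM1KO, 210, 120 and 133 CPM in LM9 and 227, 247 and 246 CPM in LM9KO. The log2 difference was 0.11 in LM1 (SE 0.16, adjusted p = 0.533) and 0.68 in LM9 (SE 0.17, adjusted p = 0.0026). Counts over exons do not show whether the coding sequence was edited, so the directions below are between libraries labelled KO and libraries labelled parental. Replicate 1 of LM9 stood apart from the other LM9 libraries. Its correlation over all genes was 0.998 with each LM1 library and 0.972 and 0.974 with LM9 replicates 2 and 3, and for 47 of the 55 members, against 84.1% of all genes, its level was nearer the LM1 mean than the mean of those 2 libraries. LM9 values of named members that changed by more than 1.5 times when it was left out are given with and without it. Libraries of LM1KO and LM9KO were as close to each other as replicates, with a highest correlation between the groups of 0.999. With the parental libraries of their own line the correlation was 0.793 to 0.794 for LM1KO and 0.778 to 0.794 for LM9KO.

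A member is called on in a group when every library had at least 1 CPM and off when every library had at most 3 counts, with low for anything between. LM1 had 40 members on, 10 low and 5 off, LM1KO 41, 10 and 4, LM9 35, 14 and 6, and LM9KO 41, 9 and 5. With LM9 replicates 2 and 3 alone the LM9 numbers were 36, 10 and 9, and Klf15, Foxd2 and Foxl1 were then off too. Of all genes 73.4%, 76.1%, 71.4% and 76.0% were on in LM1, LM1KO, LM9 and LM9KO, and 7.75%, 3.18%, 7.5% and 3.23% were off. Across all 12 libraries 33 of the 55 members were on, against 65.2% of all genes. The members on throughout were 11 Klf and 16 Fox genes, the Sox genes Sox4, Sox9 and Sox12, the Gata genes Gata3 and Gata4, and Tbx15 alone among the Tbx genes.

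**Figure D1:**
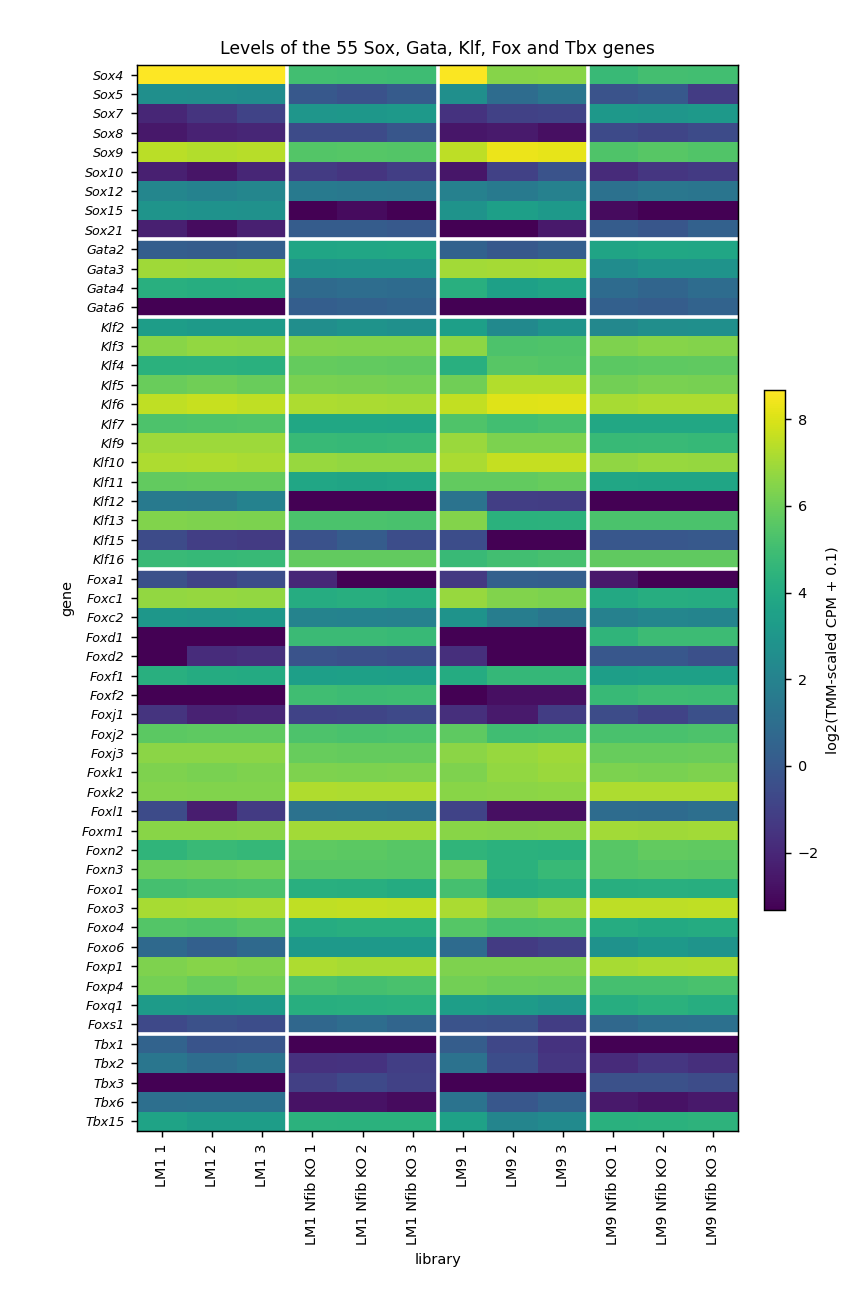
Level of each of the 55 members (rows, by family) in each of the 12 libraries (columns, by group), as log2(CPM + 0.1) with the colour scale at the side. Most rows change at the border between parental and KO-labelled libraries, 33 rows are on across all columns, and replicate 1 of LM9 is coloured like LM1 in several rows such as Sox4 and Klf13.

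Complete switches between states were few. Foxd1, Foxf2 and Gata6 were off in all 6 parental libraries and on in all 6 libraries labelled KO, 3 of 55 members against 3.0% of all genes (3.58% in LM1 alone and 3.45% in LM9 alone). Sox15 alone went the other way in both lines, against 0.925% of all genes, and with all libraries it was the only one to do so in LM9, against 1.17%. Foxa1 did so too in LM9 when LM9 replicate 1 was left out (2 members, against 1.4% of all genes), and Foxl1 then went from off to on there as well (4 members, against 4.05%). In LM1 the switch from on to off also held for Klf12 and Tbx6, so that 3 members did so there, against 1.28% of all genes. Whether any of these counts differs from its share of all genes was not tested.

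Foxd1, a forkhead gene known from the renal stroma, lies at chr13:98354242-98359305 on the forward strand of GRCm38. No parental library had a read of it, and it stood at 28.5, 28.3 and 27.3 CPM in LM1KO and at 23.1, 29.6 and 29.3 CPM in LM9KO. Against a floor of 3 counts per library it was at least 274-fold higher in LM1KO and at least 241-fold higher in LM9KO. The 6 parental libraries were at 0 and the 6 libraries labelled KO had at least 891 counts. Foxf2, a mesenchymal forkhead gene at chr13:31625816-31631403, also on the forward strand, had 0 counts in LM1 and 0, 1 and 1 in LM9. Its level was 31.7, 29.5 and 31.0 CPM in LM1KO and 27.3, 30.8 and 29.6 CPM in LM9KO. That is at least 300.3-fold higher in LM1KO, and 1169-fold higher in LM9KO with a counting interval of 323 to 9655 (95%, exact binomial), or 735-fold without LM9 replicate 1 (203 to 6072). The transposon carried by all groups holds a splice donor taken from the first exon of Foxf2. Whether reads from it were counted for the gene was not tested, and the parental libraries, which carry it too, had 2 Foxf2 counts in all.

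Gata6, a zinc-finger gene of cardiac and endodermal tissue on chromosome 18, had no count in any parental library. In LM1KO it had 43, 46 and 51 counts, or 1.08, 1.20 and 1.35 CPM, and in LM9KO 46, 44 and 50 counts, or 1.19, 1.07 and 1.30 CPM. It was on, but just above the bound of 1 CPM, and at least 11.8-fold and 10.5-fold higher than in LM1 and LM9. Sox15, the only member of the SoxG group, lies at chr11:69655314-69656727 on the forward strand. It stood at 7.37, 6.71 and 6.61 CPM in LM1 and at 7.08, 10.7 and 8.58 CPM in LM9. It had 0, 1 and 0 counts in LM1KO and 1, 0 and 0 in LM9KO. The ratio of summed counts was 798 in LM1 (interval 143 to 31590) and 1025 in LM9 (183 to 40548). Mpdu1, which overlaps Sox15 on the opposite strand, was at 26.9, 38.1, 41.1 and 37.7 CPM in LM1, LM1KO, LM9 and LM9KO, and the sources do not state whether the counting used strand. The libraries labelled KO had at most 1 Sox15 count and at least 1396 Mpdu1 counts, so few if any Mpdu1 reads were counted for Sox15.

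Klf12, a zinc-finger gene known as a repressor, spans chr14:99870632-100284679 on the reverse strand. It stood at 2.91, 2.76 and 3.94 CPM in LM1 and had no count in LM1KO or LM9KO. In LM9 it was at 2.29 CPM in replicate 1 and at 0.363 and 0.354 CPM in replicates 2 and 3, so it was on only in the replicate that resembled LM1. It was at least 41.2-fold lower in LM1KO and at least 13.2-fold lower in LM9KO, a bound of 4.70-fold without LM9 replicate 1. Tbx6, a T-box gene of the paraxial mesoderm at chr7:126781483-126785560, was at 1.99, 2.02 and 2.06 CPM in LM1 and at 2.29, 0.846 and 1.22 CPM in LM9. The libraries labelled KO had 1 to 3 counts of it, 46.9-fold lower in LM1KO (interval 19.7 to 146) and 22.2-fold lower in LM9KO (10.9 to 52.6). In both lines the parental and KO-labelled libraries of Klf12 and Tbx6 did not overlap.

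**Figure D2:**
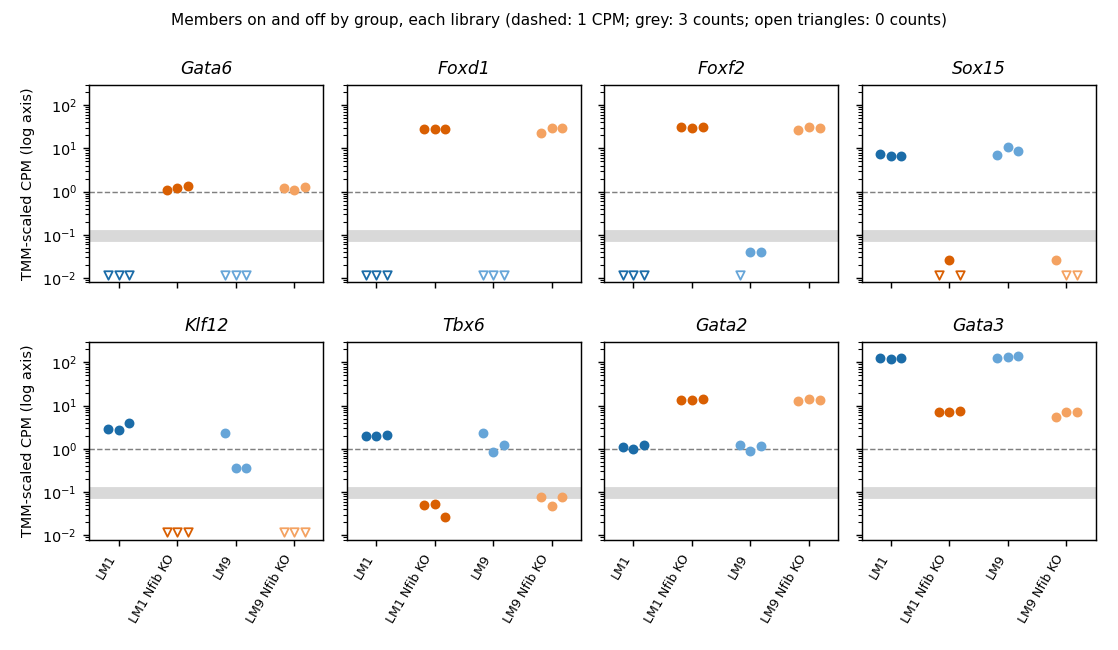
CPM in each of the 12 libraries on a log axis for Gata6, Foxd1, Foxf2, Sox15, Klf12, Tbx6, Gata2 and Gata3, with a point per library, the dashed line at 1 CPM, the grey band at 3 counts and open triangles for libraries with 0 counts. Gata6, Foxd1 and Foxf2 cross from the floor to above 1 CPM, Sox15 crosses the other way, and Gata2 and Gata3 move in opposite directions while staying above the floor.

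The sequence ahead of 4 of these genes is shown because they include the largest changes between presence and absence. RefSeq gives the promoter on GRCm38.p6, the same assembly as mm10, for 33 of the 55 members (37 promoters), here as the 250 bases before the start (247 for Foxd1, up to its annotated exon). The sequences are Foxd1 at chr13:98353995-98354241 (forward strand, with 12 CpG dinucleotides), Foxf2 at chr13:31625566-31625815 (forward strand, 21 CpG), Klf12 at chr14:100149797-100150046 (reverse strand, 6 CpG) and Sox15 at chr11:69654787-69655036 (forward strand, 5 CpG). Capitals mark CpG dinucleotides, at which mammalian DNA is methylated, and each is written 5′ to 3′ on the strand of the gene.
Foxd1: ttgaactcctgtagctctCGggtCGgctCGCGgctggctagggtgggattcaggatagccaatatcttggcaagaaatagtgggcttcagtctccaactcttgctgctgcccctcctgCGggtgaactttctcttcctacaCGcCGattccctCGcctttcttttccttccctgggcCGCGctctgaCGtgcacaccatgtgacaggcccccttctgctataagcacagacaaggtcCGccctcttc
Foxf2: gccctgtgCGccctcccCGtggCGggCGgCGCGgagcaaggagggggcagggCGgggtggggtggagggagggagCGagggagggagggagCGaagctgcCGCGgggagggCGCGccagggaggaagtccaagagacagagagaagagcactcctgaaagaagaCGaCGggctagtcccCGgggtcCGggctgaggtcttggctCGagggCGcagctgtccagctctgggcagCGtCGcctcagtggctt
Klf12: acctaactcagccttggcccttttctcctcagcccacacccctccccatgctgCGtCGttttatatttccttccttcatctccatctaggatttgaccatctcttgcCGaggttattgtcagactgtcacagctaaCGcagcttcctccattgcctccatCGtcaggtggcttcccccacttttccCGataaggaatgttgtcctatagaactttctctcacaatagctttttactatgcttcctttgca
Sox15: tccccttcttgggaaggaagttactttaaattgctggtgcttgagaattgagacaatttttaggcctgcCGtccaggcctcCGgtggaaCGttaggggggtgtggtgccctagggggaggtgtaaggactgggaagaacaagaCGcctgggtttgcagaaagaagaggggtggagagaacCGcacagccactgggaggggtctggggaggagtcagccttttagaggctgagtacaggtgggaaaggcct

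The Foxf2 stretch overlaps an exon of 1700018A04Rik on the other strand, and the Klf12 stretch lies inside the annotated gene, ahead of a later first exon. The promoter of Foxf2, off in parental cells, had 21 CpG, the median of the 37 member promoters, and that of Sox15, off in libraries labelled KO, had 5. Over all 32851 promoters of that length the median was 6. The 22 promoters of members on in all 12 libraries had a median of 25.5 CpG, and the 10 promoters of members off in at least 1 group a median of 14.5. The letters of the palindromic NFI site, searched on both strands like the other motifs, were in none of the 37 member promoters and in 0.0365% of all promoters. The shorter NFI motif TTGGCA, which can overlap the palindromic site, was in 5 member promoters, those of Foxd1, Gata2, Sox4, Sox5 and Sox8, against 12.3% of all promoters. The KLF motif CCACACCC was in 2, those of Klf12 and Sox15, against 3.2% of all, and the Fox motif GTAAACA in 3, those of Foxa1, Klf9 and Sox12, against 3.17%. The Sox motif AACAAT was in 2 (Foxp1 and Klf9; 9.42% of all), TATAAA in 2 (Klf12 and Tbx6; 12.4%), and the GATA motif AGATAA (9.99%) and the T-box motif AGGTGTGA (1.12%) in none. Such matches are descriptions of letters, not of binding.

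To ask which members differed between libraries labelled KO and parental libraries, limma-voom was fitted to all 18176 genes that passed a filter on low counts, which all 55 members did. At a Benjamini-Hochberg adjusted p under 0.05, 49 members changed in LM1KO against LM1, 22 higher and 27 lower, where 81.2% of all genes tested changed (43.1% higher and 38.1% lower). In LM9KO against LM9, 48 members changed, 24 higher and 24 lower, against 82.3% of all genes (44.3% higher and 38.0% lower). Shares of 89.1% and 87.3% of the members thus stand beside a background in which most genes changed. The median log2 fold change of the 55 members was −0.41 in LM1 and 0.01 in LM9, against 0.08 and 0.13 over all genes. With library totals in place of TMM scaling the median of all genes was 0.31 and 0.49, and 24 members were then higher and 23 lower in LM1 (48.0% and 32.9% of all genes), and 25 and 20 in LM9 (52.3% and 30.2%). Without LM9 replicate 1, 54 members changed in LM1 (25 higher and 29 lower) against 88.6% of all genes (46.4% and 42.1%), and 52 in LM9 (28 and 24) against 88.9% (47.7% and 41.2%).

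The direction was shared between the lines for 44 members, against 73.1% of all genes: 22 were higher in both contrasts (39.6% of all genes were) and 22 lower in both (33.5% of all genes). None was higher in one line and lower in the other, against 0.0385% of all genes, but without LM9 replicate 1 there were 7 such members (Sox10, Klf3, Klf5, Klf13, Foxc2, Foxj2 and Foxn3), against 5.73%. Klf2, Klf13, Foxc2, Foxj2 and Foxo1 passed the test with all libraries only in LM1 (all 5 lower), Klf3, Klf5, Klf15 and Foxk1 only in LM9, and Sox10 and Foxn3 in neither. For 43 members, against 74.7% of all genes, the 6 parental and the 6 KO-labelled libraries did not overlap. Changes of more than 2 on the log2 scale in both lines were found in 11 members that were higher (15.4% of all genes) and 11 that were lower (10.8%). Of the called Klf genes 8 of 10 were lower in LM1 and 7 of 11 in LM9, and of the called Fox genes 13 of 22 and 13 of 20 were higher. Of all called genes 53.1% and 53.8% were higher, and a difference between the families was not tested.

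**Figure D3:**
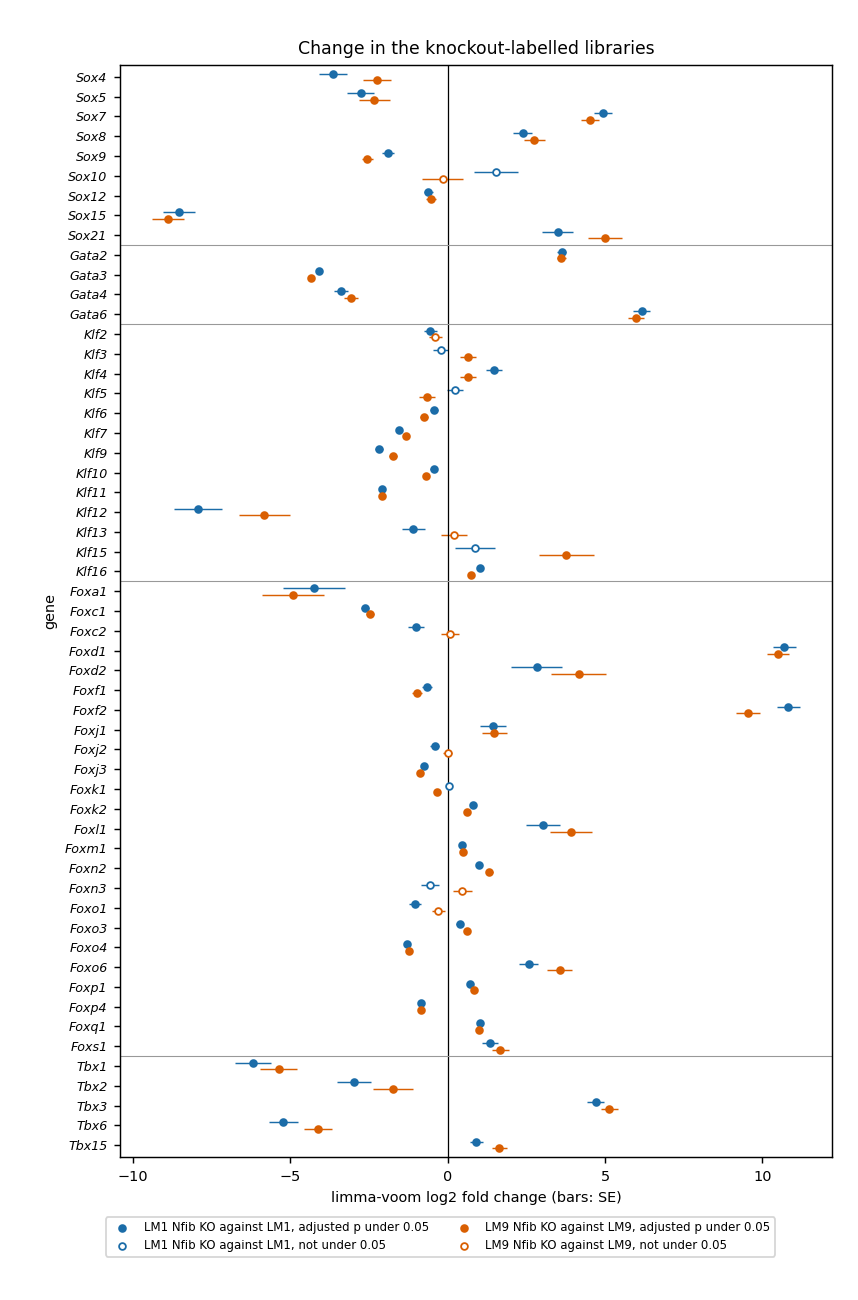
Log2 fold change with its standard error for each of the 55 members in LM1KO against LM1 and in LM9KO against LM9, from limma-voom, with filled symbols for an adjusted p under 0.05. The 44 members called in both lines lie on the same side of 0 in both.

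Among the Sox genes 8 of 9 changed in each line, 3 higher and 5 lower. Sox4, a SoxC gene of progenitor cells, stood at 395, 407 and 402 CPM in LM1 and at 33.2, 32.1 and 31.0 CPM in LM1KO. In LM9 it was at 387 CPM in replicate 1 and at 89.2 and 93.8 CPM in replicates 2 and 3, with 27.9, 34.3 and 32.5 CPM in LM9KO. Its log2 fold change was −3.65 in LM1 (SE 0.45, adjusted p = 1.32e-05) and −2.24 in LM9 (SE 0.45, adjusted p = 0.000716), and the LM9 value was −1.54 without replicate 1. Parental libraries were above every library labelled KO, and LM9 replicate 1 was close to LM1 while the other two LM9 libraries were not. Gm26735 overlaps Sox4 on the other strand.

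Sox9, a SoxE gene known from cartilage and from progenitors of many epithelia, was at 172, 158 and 169 CPM in LM1, 44.2, 45.8 and 44.2 CPM in LM1KO, 175, 317 and 302 CPM in LM9 and 41.4, 46.5 and 43.0 CPM in LM9KO. The log2 fold change was −1.89 in LM1 (SE 0.19, adjusted p = 1.8e-06) and −2.55 in LM9 (SE 0.18, adjusted p = 1.23e-07). LM9 replicates 2 and 3 were highest and the libraries labelled KO lowest, with no overlap. Sox7, a SoxF gene of endothelial cells, had the largest rise among the Sox genes with a mean of at least 1 CPM, from 0.142, 0.245 and 0.434 CPM in LM1 to 7.80, 7.995 and 8.53 CPM in LM1KO, and from 0.236, 0.403 and 0.433 CPM in LM9 to 8.32, 7.74 and 8.84 CPM in LM9KO. Its log2 fold change was 4.94 (SE 0.29) in LM1 and 4.52 (SE 0.28) in LM9, with adjusted p = 2.13e-08 and 3e-08. Sox8 and Sox21 also rose from near 0, with Sox21 at 7 counts over the LM1 libraries and 114 over the LM1KO libraries, a ratio of 12.4 (interval 5.85 to 31.6), and at 2 and 121 counts in LM9 and LM9KO, a ratio of 40.9 (11.1 to 342), or 25.7 without LM9 replicate 1 (6.97 to 215). Sox8 stayed under 1 CPM, with group means of 0.113, 0.658, 0.0625 and 0.526 CPM in LM1, LM1KO, LM9 and LM9KO.

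Of the other Sox genes, Sox5 had means of 5.89 and 3.49 CPM in LM1 and LM9 against 0.863 and 0.655 CPM in LM1KO and LM9KO, with log2 fold changes of −2.77 and −2.33. The LM9 mean of Sox5 was 2.15 CPM without LM9 replicate 1, and the change −1.78. Sox12 changed least of the called Sox genes, from 4.47, 3.86 and 4.41 CPM in LM1 to 3.02, 2.67 and 2.62 CPM in LM1KO, a change of −0.61 (SE 0.14, adjusted p = 0.0017). In LM9 it stood at 3.81, 2.86 and 3.70 CPM and in LM9KO at 2.13, 2.63 and 2.39 CPM, a change of −0.54 (SE 0.15, adjusted p = 0.0061). Sox10, a neural crest and mammary progenitor gene, was under 1 CPM in mean in all groups. Its LM1 value was 1.52 (SE 0.70, adjusted p = 0.0638), and it passed at 0.0425 to 0.0498 in edgeR, in DESeq2 and with the replicate block, at 0.0291 with library totals, and at 0.0213 without LM9 replicate 3. Its LM9 value of −0.16 (adjusted p = 0.821) was −1.13 without LM9 replicate 1 (adjusted p = 0.00971).

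All 4 Gata genes changed in both lines, Gata2 and Gata6 higher and Gata3 and Gata4 lower. Gata3, the luminal GATA factor at chr2:9857078-9890034, was at 125, 119 and 126 CPM in LM1 and 127, 134 and 138 CPM in LM9. In LM1KO it was at 7.15, 7.24 and 7.29 CPM and in LM9KO at 5.55, 7.03 and 7.10 CPM. The log2 fold change was −4.09 in LM1 (SE 0.09, adjusted p = 1.15e-11) and −4.35 in LM9 (SE 0.09, adjusted p = 8.91e-12), and no library of one kind came near the other kind. The gene 9230102O04Rik, which overlaps it on the same strand, was at 0 counts in the libraries labelled KO. Gata2, known from blood and endothelial precursors, lies at chr6:88193891-88207032 and went from 1.10, 1.01 and 1.19 CPM in LM1 to 13.2, 13.7 and 14.1 CPM in LM1KO, and from 1.25, 0.886 and 1.14 CPM in LM9 to 12.8, 14.1 and 13.6 CPM in LM9KO. It rose by 3.62 (SE 0.14, adjusted p = 5.95e-10) and 3.61 (SE 0.14, adjusted p = 8.06e-10) on the log2 scale, so the size was nearly equal in the 2 lines. Gata4, a cardiac and endodermal factor, fell from means of 18.3 and 14.1 CPM in LM1 and LM9 to 1.74 and 1.65 CPM, with log2 fold changes of −3.39 and −3.08.

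Of the 13 Klf genes 10 changed in LM1 and 11 in LM9. Klf6, an activator induced by growth signals, had the highest level per kb of exon in its family in all 4 groups. It was at 182, 201 and 186 CPM in LM1, 146, 142 and 136 CPM in LM1KO, 188, 276 and 276 CPM in LM9 and 137, 146 and 147 CPM in LM9KO. The change was −0.42 in LM1 (SE 0.13, adjusted p = 0.00867) and −0.76 in LM9 (SE 0.13, adjusted p = 0.000147), without overlap of the groups. With library totals in place of TMM scaling the LM1 value was −0.20 with adjusted p = 0.0607. Klf4, known from reprogramming and epithelial differentiation, was at 20.2, 20.8 and 19.3 CPM in LM1 and 57.7, 54.9 and 54.2 CPM in LM1KO, a rise of 1.47 (SE 0.26, adjusted p = 0.000269). Replicate 1 of LM9 was at 18.8 CPM and the other two LM9 libraries at 46.2 and 44.0 CPM, beside 50.7, 52.3 and 53.0 CPM in LM9KO. Its LM9 value of 0.64 (SE 0.25, adjusted p = 0.0315) was 0.21 without replicate 1 (adjusted p = 0.000741), did not pass the test in edgeR (adjusted p = 0.0693) or DESeq2 (adjusted p = 0.0694), and lost the call when any LM9KO library was left out (adjusted p of 0.0563 to 0.0677).

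The Klf genes that fell furthest, beside Klf12, were Klf9, Klf11 and Klf7. Klf9, a gene induced by glucocorticoid and thyroid hormones, had means of 120 ± 0.61 CPM in LM1 (SD, n = 3) and 26.7 ± 0.397 CPM in LM1KO, with 91.0 and 26.7 CPM in LM9 and LM9KO, and log2 fold changes of −2.17 and −1.75. Klf11, which binds Sin3A as Klf9 does, fell by 2.10 in both lines, from means of 56.6 and 56.9 CPM to 13.2 and 13.3 CPM. Klf16 rose by 1.01 and 0.75, to means of 54.8 and 53.3 CPM. Klf10, an early response gene of TGF-beta signalling, fell less, from means of 145 and 178 CPM in LM1 and LM9 to 107 and 109 CPM in LM1KO and LM9KO (−0.44 and −0.69). Klf2, an endothelial flow-response gene, was at means of 9.53 CPM in LM1 and 6.496 CPM in LM1KO (−0.55, adjusted p = 0.0236, and 0.0573 to 0.0741 without LM1 replicate 1 or LM1KO replicate 1 or 3) and at 7.65 and 5.68 CPM in LM9 and LM9KO (−0.39, adjusted p = 0.111, with −0.64 and adjusted p = 0.00603 without LM9 replicate 2, and −0.10 and adjusted p = 0.524 without LM9 replicate 1). Klf13 was at 85.8 CPM in LM9 replicate 1 and at 20.0 and 21.1 CPM in replicates 2 and 3, beside 38.7, 38.7 and 38.4 CPM in LM9KO, and 38.1 to 39.2 CPM in LM1KO against 80.0 to 83.7 CPM in LM1. Klf13 thus lay below LM1 and above the 2 other LM9 libraries in libraries labelled KO. Klf15 was at 0.607 CPM in LM9 replicate 1, with no count in the 2 others, and at 0.851 to 0.936 CPM in LM9KO, and it passed the test in LM9 (adjusted p = 0.00172). Klf3 and Klf5 are described with the comparison of the lines.

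The Fox genes were the largest family, with 22 of 24 changed in LM1 and 20 in LM9. Foxo3, a FoxO factor, had the highest level per kb in the LM1 libraries and Foxk2, a repressor of autophagy genes, in the other groups. Foxo3 was at 138, 143 and 149 CPM in LM1, 186, 188 and 184 CPM in LM1KO, 142, 95.1 and 118 CPM in LM9 and 177, 177 and 183 CPM in LM9KO, a rise of 0.38 (SE 0.11, adjusted p = 0.00684) and 0.61 (SE 0.11, adjusted p = 0.000284). Foxk2 was at 86.9, 84.6 and 84.9 CPM in LM1, 149, 146 and 147 CPM in LM1KO, 92.6, 95.4 and 99.7 CPM in LM9 and 145, 148 and 146 CPM in LM9KO. It rose by 0.79 (SE 0.05, adjusted p = 2.84e-08) and 0.61 (SE 0.05, adjusted p = 2.7e-07). In both genes every library labelled KO lay above every parental library. The FoxO genes did not move together: Foxo3 and Foxo6 rose, Foxo4 fell (−1.29 and −1.24), and Foxo1 fell by 1.03 in LM1 (adjusted p = 0.000463) while its LM9 value was −0.29 (adjusted p = 0.207), −0.49 without LM9 replicate 2 (adjusted p = 0.0429) and 0.05 without LM9 replicate 1 (adjusted p = 0.559). Foxo6 had means of 1.48 and 0.823 CPM in LM1 and LM9 and 8.74 and 7.70 CPM in LM1KO and LM9KO, with log2 fold changes of 2.57 and 3.56. Its LM9 mean was 0.358 CPM without LM9 replicate 1, and the change 4.36.

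Foxc1, a mesenchymal forkhead gene that also marks basal-like breast cancer, had the largest fall among the Fox genes of at least 1 CPM in mean. It was at 105, 108 and 106 CPM in LM1, 17.02, 18.5 and 16.4 CPM in LM1KO, 114, 83.9 and 78.1 CPM in LM9 and 14.8, 17.5 and 17.1 CPM in LM9KO. The change was −2.62 in LM1 (SE 0.13, adjusted p = 5.44e-09) and −2.47 in LM9 (SE 0.13, adjusted p = 1.04e-08), with all libraries labelled KO below all parental ones. Foxq1 (chr13:31556134-31560976), Foxf2 (chr13:31625816-31631403) and Foxc1 (chr13:31806633-31812476) are neighbours, and they did not move as one. Foxf2 rose from the floor, and Foxq1 rose from a mean of 9.33 CPM in both parental lines to 19.0 and 18.5 CPM, beside the gene A530084C06Rik that overlaps it on the other strand and went from 0.897 and 0.354 CPM to 6.07 and 5.88 CPM. The same held on chromosome 8, where Foxf1 fell, with values of −0.66 and −0.99, and Foxl1 rose by 3.02 (2.31 without LM1 replicate 2) and 3.92 (4.95 without LM9 replicate 1), from means of 0.328 and 0.173 CPM to 2.19 and 1.83 CPM, with Foxc2 between them.

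Foxp1, a FoxP factor expressed in many tissues, was at 81.9, 89.8 and 84.1 CPM in LM1, 147, 137 and 136 CPM in LM1KO, 82.7, 80.5 and 80.9 CPM in LM9 and 139, 148 and 149 CPM in LM9KO. It rose by 0.72 (SE 0.06, adjusted p = 3.28e-07) and 0.83 (SE 0.06, adjusted p = 9.06e-08), while Foxp4 fell, with values of −0.85 and −0.84. Gm49348 and Gm20696 share exon sequence with Foxp1 on its strand, so some of its reads may belong to them. Foxm1, a factor of mitotic gene expression, was at 91.8, 91.7 and 95.6 CPM in LM1, 128, 127 and 130 CPM in LM1KO, 93.4, 90.01 and 92.7 CPM in LM9 and 130, 126 and 128 CPM in LM9KO, a rise of 0.46 and 0.48. Tex52 and Gm44596 share exon sequence with Foxm1 on its strand. All parental libraries of both genes lay below all libraries labelled KO. Foxa1, a luminal pioneer factor, had means of 0.572 CPM in LM1 and 0.858 CPM in LM9, where replicate 1 was at 0.304 CPM and replicates 2 and 3 were at 1.17 and 1.10 CPM and thus on. In LM9KO it was off, a ratio of 32.5 in summed counts (interval 10.7 to 162) and of 44.7 without LM9 replicate 1 (14.5 to 223). Foxn2 rose by 0.99 and 1.33, to means of 49.9 and 51.7 CPM, and Foxj3 fell from means of 96.8 and 111 CPM to 57.3 and 59.9 CPM. Foxd2, Foxj1 (the ciliogenesis factor) and Foxs1 rose in both lines at low levels, with means of at most 0.607 CPM in parental cells and at most 1.88 CPM in libraries labelled KO. Foxn3 had means of 68.1 and 37.9 CPM in LM1 and LM9 and 46.5 and 46.7 CPM in LM1KO and LM9KO and passed the test in neither line. Without LM9 replicate 1 its LM9 mean was 23.8 CPM, and it then passed in both lines.

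The 5 Tbx genes all changed in both lines, Tbx3 and Tbx15 higher and Tbx1, Tbx2 and Tbx6 lower. Tbx15, a gene of limb and adipose mesenchyme, was at 12.2, 9.99 and 10.3 CPM in LM1, 21.02, 19.8 and 20.1 CPM in LM1KO, 11.6, 4.31 and 5.20 CPM in LM9 and 19.7, 19.9 and 21.7 CPM in LM9KO. It rose by 0.91 in LM1 (SE 0.22, adjusted p = 0.00211) and by 1.64 in LM9 (SE 0.25, adjusted p = 6.77e-05). All libraries labelled KO were near 20 CPM, while the parental libraries spread from 4.31 to 12.2 CPM. Tbx3 had no count in any parental library and 15, 20 and 15 counts in LM1KO and 26, 28 and 23 in LM9KO, which is under 1 CPM and at least 4.23-fold and 5.74-fold above the floor. Tbx1 went the other way, from means of 0.958 and 0.588 CPM to no count in any library labelled KO, at least 12.3-fold and 7.72-fold lower, and the LM9 bound was 4.72-fold without replicate 1, where the mean was 0.36 CPM. Tbx2, a relative of Tbx3, was at 2.55, 1.87 and 2.28 CPM in LM1 and 0.227, 0.235 and 0.370 CPM in LM1KO, a change of −2.97 (SE 0.54, adjusted p = 0.000328). Its LM9 libraries were at 2.16, 0.604 and 0.276 CPM and its LM9KO libraries at 0.181, 0.268 and 0.208 CPM, a change of −1.73 (SE 0.63, adjusted p = 0.0246) that was −0.89 without LM9 replicate 1 (adjusted p = 0.0583), −1.61 without LM9KO replicate 1 (adjusted p = 0.0695) and −1.70 without LM9KO replicate 3 (adjusted p = 0.0601).

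The make-up of each family was compared per kb of exon, since longer transcripts give more reads. In LM1 Sox4 held 62.7% of the summed Sox level (83.8 CPM per kb) and Sox9 30.1% (40.2 CPM per kb), whereas in LM9 Sox9 held 55.6% and Sox4 34.4%, or 70.4% and 17.9% without replicate 1. In LM1KO and LM9KO the order was Sox9, Sox4 and Sox7, at 10.8, 6.69 and 2.46 CPM per kb in LM1KO and 10.6, 6.58 and 2.52 in LM9KO. The Gata sum passed from Gata3, with 86.4% in LM1 and 89.7% in LM9, to Gata2, with 50.9% in LM1KO and 52.6% in LM9KO, where Gata3 kept 36.5% and 34.7%. Tbx15 held 59.0% and 59.99% of the Tbx sum in LM1 and LM9 and 97.04% and 96.5% in LM1KO and LM9KO. In the Klf family Klf6 came first and Klf10 next in all groups. In the Fox family Foxf2, at 12.99 and 12.4 CPM per kb, came next after Foxk2, Foxo3 and Foxm1 in LM1KO and LM9KO.

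**Figure D4:**
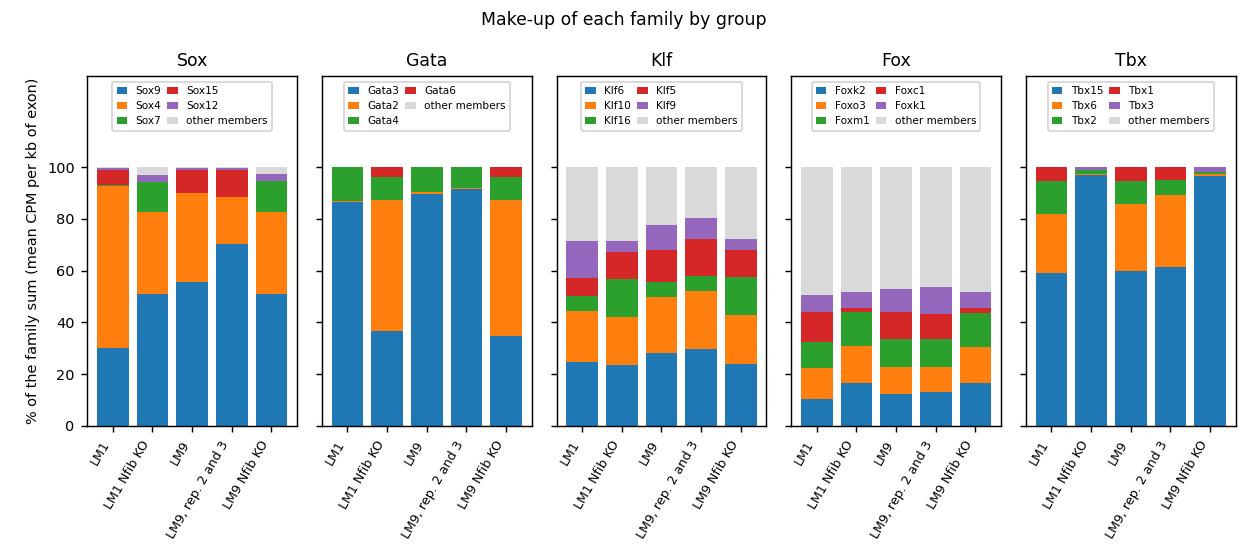
Share (%) of each family's summed CPM per kb of exon held by its members, as stacked bars from 0, for the 5 families in LM1, LM1KO, LM9, LM9 replicates 2 and 3 alone, and LM9KO. Gata3 fills most of the Gata bar in parental cells. In libraries labelled KO Gata2 has the largest part of it, and Tbx15 fills nearly all of the Tbx bar. The bars show shares and not levels.

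The next comparison set LM1 beside LM9 to ask how far the 2 metastatic lines use the same factors. No member passed limma-voom at an adjusted p under 0.05, against 0.0055% of all genes. At an unadjusted p under 0.05 there were 28 members, against 47.6% of all genes. EdgeR called 0, against 0.0055%, and DESeq2 16, against 33.9%. Without LM9 replicate 1, 41 members passed, 26 higher in LM1 and 15 higher in LM9, against 65.7% of all genes (33.4% and 32.4%). The smallest adjusted p of a member was 0.0543 with all libraries. Calls depended on this library and also on the tool, the scaling and the filter, since with it kept library totals called 17 members, against 28.8% of all genes, and a mean of at least 5 CPM 14 of 36, against 39.4%. For 24 of the 55 members, against 52.2% of all genes, LM9 replicate 1 lay inside the range of LM1 and outside that of LM9 replicates 2 and 3.

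The members that differed most between LM1 and LM9 replicates 2 and 3 were Klf15, at 0.325 to 0.567 CPM and no count, and Klf12, at 2.76 to 3.94 and 0.354 to 0.363 CPM. With all LM9 libraries the Klf12 value was 2.14 (SE 0.48, adjusted p = 0.0543), and without replicate 1 it was 3.06 (SE 0.32, adjusted p = 2.67e-07). Sox4 was higher in LM1 by 2.13 without replicate 1, Klf13 by 1.99, Foxn3 by 1.53, Klf3 by 1.29 and Tbx15 by 1.18, while Klf5 (−1.31), Klf4 (−1.16) and Sox9 (−0.90) were lower in LM1. Foxc2, a mesenchymal forkhead gene of lymphatic vessels, was at 8.12, 7.60 and 8.02 CPM in LM1 and 7.12, 3.34 and 2.44 CPM in LM9, a difference of 0.99 (SE 0.27, adjusted p = 0.0543) and of 1.46 without replicate 1. Klf5, an epithelial progenitor gene, had a mean of 63.2 CPM in LM1 and 157 CPM in LM9 replicates 2 and 3, with 74.2 CPM in both LM1KO and LM9KO, and Klf3 had 99.7, 40.8, 85.5 and 86.3 CPM in that order. With all libraries both passed the test in LM9KO against LM9 (Klf5 −0.67, adjusted p = 0.0302, and Klf3 0.64, adjusted p = 0.0375), calls that were lost without any single one of LM9 replicates 2 and 3 and the LM9KO libraries (adjusted p of 0.0575 to 0.16). The Klf3 call was also lost in edgeR (0.51, adjusted p = 0.103) and in DESeq2 (0.52, adjusted p = 0.0810). Replicate 1 was near LM1 in all of these genes. That replicates 2 and 3 of LM9 lay apart from LM1 follows from the choice of genes.

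**Figure D5:**
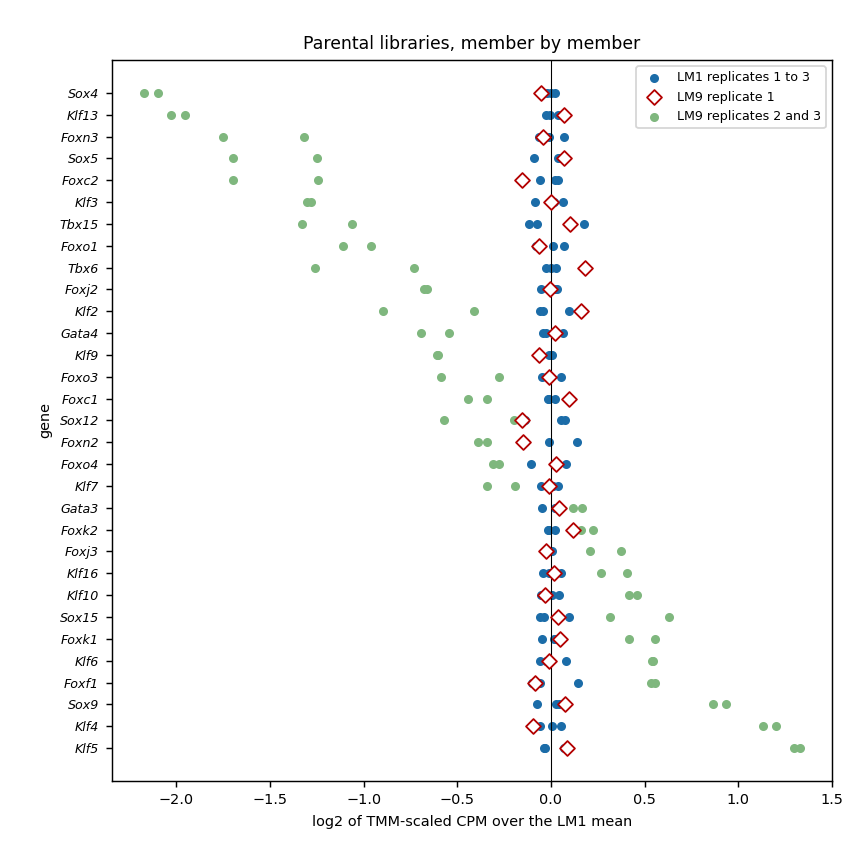
Log2 of each parental library's level over the LM1 mean for the 31 members that differed between LM1 and LM9 without LM9 replicate 1 and had a mean of at least 1 CPM in both, with a point per library. Replicate 1 of LM9 lies with the LM1 libraries around 0, and replicates 2 and 3 lie together on one side of it. That replicates 2 and 3 lie apart from LM1 follows from the choice of members.

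Whether the difference between KO-labelled and parental libraries itself differed by line was tested as an interaction. No member passed with all libraries (smallest adjusted p = 0.202), where 0.0% of all genes did, 16 members had an unadjusted p under 0.05, against 24.7% of all genes, and edgeR and DESeq2 called 0, against 0.0055% and 0.429%. Without LM9 replicate 1, 35 members passed, 13 with a positive and 22 with a negative value, against 57.2% of all genes (27.6% and 29.6%). Of these, 7 had called changes of opposite sign in the 2 lines: Klf13 (−1.08 in LM1 and 0.91 in LM9), Klf3 (−0.22 and 1.08), Klf5 (0.23 and −1.08), Foxn3 (−0.55 and 0.99), Foxc2 (−1.01 and 0.54), Foxj2 (−0.41 and 0.24) and Sox10 (1.53 and −1.13). With all libraries the interaction value of Foxc2 was −1.08 (SE 0.38) and that of Klf15 −2.90 (SE 1.07), both with an adjusted p of 0.202. With each library left out in turn the Foxc2 value ran from −1.55 to −0.75 and the Klf15 value from −4.62 to −2.03. The Klf15 value depends on the prior count, since 2 LM9 libraries had no read of it.

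LM1KO and LM9KO were compared last. No member passed the test in limma-voom, edgeR or DESeq2, with 0.0% of all genes called in limma-voom, and 1 member, Tbx3, had an unadjusted p under 0.05, against 0.979% of all genes. All 12 libraries, LM9 replicate 1 included, shared 1 estimate of the spread in that fit. Without LM9 replicate 1, 0 members passed and 3 had an unadjusted p under 0.05, against 0.0% and 3.6% of all genes. A limma-voom fit of only LM1KO and LM9KO called 0.0357% of all genes, and 7.62% had an unadjusted p under 0.05. Tbx3 was at 0.378, 0.523 and 0.396 CPM in LM1KO and 0.674, 0.681 and 0.598 CPM in LM9KO, a log2 value of −0.59 with adjusted p = 1.00, and its groups did not overlap. Tbx6 (−0.54) and Sox5 (0.48) had the next largest differences. A test that calls no gene does not show that the 2 groups are alike, but over the 55 members the absolute log2 difference was 0.05 in median and 0.59 at most. 

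Genes known as partners or targets of the 5 families were followed as lists. The files held 9 of 22 Sox, 9 of 19 GATA and 14 of 20 KLF genes of these lists. They held 18 of 20 FoxO, 18 of 18 FoxM1 and 9 of 18 T-box genes, and the rest were not analysed here. The counts of the lists stand beside a background of 43.1% of all genes higher and 38.1% lower in LM1, and 44.3% and 38.0% in LM9, and nothing particular to a list is read from them. Of 18 FoxO targets, 14 were lower and 4 higher in both LM1KO and LM9KO, with median log2 fold changes of −2.28 and −2.07, and with library totals in LM9 the counts were 12 and 4. The muscle ubiquitin ligase gene Trim63 went from 9.22 and 6.70 CPM in LM1 and LM9 to at most 1 count in a library, and Sesn2, a stress-induced inhibitor of mTORC1, rose by 2.28 and 2.31. Of 18 FoxM1 targets, which are mitotic genes, 15 were lower in each line and 1 and 2 higher, with medians of −1.17 and −1.15, although Foxm1 mRNA itself rose. Cenpa, a centromere histone gene, fell by 3.14 in LM1 and fell by 3.02 in LM9, and Skp2 rose by 0.30 and 0.40. Of 9 T-box targets and partners 7 were higher in each line, and 1 and 2 lower, with medians of 1.38 and 1.42 after genes at the floor were set to their bound. Cdkn2a, a cell-cycle inhibitor that Tbx2 and Tbx3 repress, went from 0 and 0.0225 CPM to 42.5 and 38.3 CPM, and Cdh1, the gene of E-cadherin, from 11.3 and 22.2 CPM to at most 1 count.

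The other lists were mixed. Of 9 Sox partners and targets 4 were higher and 5 lower in LM1, and 4 and 4 in LM9, with medians of −0.43 and 0.10 (0.31 in LM9 without LM9 replicate 1, with 5 higher and 4 lower). Pax3 rose from at most 1 count to 10.1 and 10.8 CPM, and Mbp fell from 49.5 and 46.6 CPM to 0.0518 and 0.0254 CPM. Of 9 GATA cofactors and targets 3 were higher and 4 lower in LM1, and 2 and 3 in LM9, with medians of 0.19 and −0.57, and of 14 KLF targets and partners 6 were higher and 6 lower in LM1, and 5 and 8 in LM9, with medians of −0.03 and −0.55. With library totals the KLF median in LM1 was 0.19, and without LM9 replicate 1 the GATA list had 3 higher and 5 lower in LM9, with a median of −1.18. Hhex rose in the GATA list to 1.41 and 1.34 CPM, and Thbd, the thrombomodulin gene and a target of Klf2 and Klf4, went from 0.119 and 0.045 CPM to 152 and 148 CPM. Sap25, a gene of the Sin3 corepressor, fell furthest in the KLF list, from 24.1 and 21.9 CPM to 2.12 and 2.29 CPM, and Foxa1 in the GATA list.

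Markers of several cell types moved along with these factors, and their part in the results was not tested. The shares of all genes higher and lower given for the targets apply here too. The files held 11 of 16 luminal, 13 of 15 fibroblast, 6 of 12 endothelial and 8 of 14 renal tubule markers. They held 7 of 12 neural crest and 8 of 12 basal markers, and only markers in the files are counted. Markers at the floor in all parental libraries, such as Kdr, Cdh5, Aqp2 and Pax3, are in the files only through the libraries labelled KO. The reverse holds for markers at the floor in all libraries labelled KO, such as Cdh1 and Cldn3. In bulk samples, fewer cells of a type and less RNA per cell cannot be told apart. Of 11 luminal epithelial markers 10 were lower and 1, Esr1, higher in each line. Their summed level was 1044 to 1090 CPM in LM1 and 27.1 to 28.0 CPM in LM1KO, and 1086 to 1843 CPM in LM9 and 27.6 to 29.5 CPM in LM9KO. Cdh1, Cldn3, Cldn4 and Ltf were at the floor in both groups labelled KO, where Krt18 fell from 480 and 657 CPM to 0.0436 and 0.00811 CPM. Esr1 alone made up 26.0 and 26.9 CPM of the sums in LM1KO and LM9KO, so the other luminal markers were at or near 0 in the libraries in which Gata3 and Foxa1 were lowest. Of 13 fibroblast and mesenchymal markers, 12 were higher and 1 lower in LM1, and 11 and 0 in LM9, with summed levels of 3279 to 3549 CPM in LM1, 7098 to 7141 CPM in LM1KO, 3495 to 5769 CPM in LM9 and 6917 to 6992 CPM in LM9KO. Prrx1 rose in both lines to 170 and 172 CPM, and Dcn was the one that fell in LM1 (−2.98). Without LM9 replicate 1, 11 were higher and 2 lower in LM9, and the Dcn value there was −0.32 (adjusted p = 0.00114) in place of −1.18 (adjusted p = 0.0576).

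Of 6 endothelial markers 5 were higher in LM1 and 4 in LM9, and none lower, with summed levels of 4.66 to 6.13 CPM in LM1, 383 to 388 CPM in LM1KO, 5.19 to 15.9 CPM in LM9 and 379.8 to 387 CPM in LM9KO. Kdr made up most of this, at 282 and 284 CPM, beside Pecam1 at 0.433 and 0.332 CPM. Of 8 renal tubule markers 6 were higher and 1 lower in LM1, and 7 and 1 in LM9, with summed levels of 242 to 258 CPM in LM1, 1378 to 1428 CPM in LM1KO, 130 to 252 CPM in LM9 and 1289 to 1373 CPM in LM9KO. Aqp2 was near 0 in parental cells and at 1087 and 1008 CPM in LM1KO and LM9KO, while Aqp3 was lower, with log2 fold changes of −2.99 and −3.996 (−4.60 in LM9 without replicate 1). Of 7 neural crest markers 4 were higher and 2 lower in LM1, and 4 and 1 in LM9, with sums of 36.5 to 40.4, 125 to 128, 37.9 to 91.6 and 115 to 126 CPM in LM1, LM1KO, LM9 and LM9KO. Pax3 was the gene that rose most there and Erbb3 the one that fell most, with log2 fold changes of −4.26 and −4.76. Without LM9 replicate 1, 5 neural crest markers were higher and 2 lower in LM9, with a median of 0.38 in place of 1.33, and 4 endothelial markers were higher and 2 lower. Of 8 basal markers 5 were higher and 2 lower in LM1, and 5 and 1 in LM9, with sums of 229 to 252, 316 to 322, 187 to 234 and 324 to 329 CPM. Lgr5 rose in the basal list from at most 1 count to 2.003 and 2.09 CPM, and Trp63 fell by 5.79 in LM1 while its LM9 value was −1.49 (adjusted p = 0.412). LM9 replicate 1 held 17.9 CPM of Trp63 and replicates 2 and 3 held 0.0403 and 0.276 CPM, and without replicate 1 the value was 1.01 (adjusted p = 0.168). Of the 2 haematopoietic markers in the files Csf1r rose and Cd68 fell, with sums of 450.2 to 467 and 110.5 to 116 CPM in LM1 and LM1KO and 466 to 554 and 107 to 117 CPM in LM9 and LM9KO, and the other 8 were not analysed here.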

How the data were processed

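The authors aligned single-end reads of stranded poly-A libraries with STAR to mm10 and counted read 5′ ends over the union of each gene's exons with qCount of QuasR. The deposited values were unnormalised whole-number counts per gene, 1 file per library, with no pooling. Versions and the use of strand in the counting are not given in the sources used here.

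From these counts TMM-scaled CPM were computed, and limma-voom was fitted with 1 mean per group (limma 3.58.1, edgeR 4.0.16, R 4.3.3) to genes passing filterByExpr (minimum count 10, total 15), with voom's offset of 0.5. There were 5 contrasts, each adjusted over all genes tested by the Benjamini-Hochberg method. Folds against a group at 0 used a floor of 3 counts per library. Alternatives were edgeR's quasi-likelihood test, DESeq2 1.42.0, median-ratio factors, library totals, no filter, a mean of at least 5 CPM, only the groups compared, a threshold of 1 on the log2 scale, a replicate block and each library left out. The code was tested on simulated data in which few genes changed, in LM1KO only, and no library stood apart. That test does not cover a background in which most genes changed. Gene models were from GENCODE M21 (GRCm38), which matched 18268 of 18278 identifiers, and promoters from RefSeq.

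Values per library are given for members on in one group and off in another, for the highest level per kb and the largest rise and fall in each family, for the smallest p-values of the other contrasts (the 2 smallest where none passed), and for Foxp1. Other members were picked after their values were seen, and in each of the 13 lists the genes with the largest rise and fall were named. Members and lists were chosen with earlier results of these data known. The lists are Sox, GATA, KLF, FoxO, FoxM1 and T-box targets and partners, and markers of luminal, basal, fibroblast, endothelial, neural crest, haematopoietic and renal tubule cells.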

Additional observations from a re-analysis of the deposited data

How the results depend on the processing

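Of the 44 members called with 1 sign in both lines, 4 (Sox12, Klf4, Klf6 and Tbx2) lost a call in 1 line under at least 1 alternative other than the threshold of 1 on the log2 scale, and 0 changed sign. Over all 55 members 10 lost a call or changed sign, adding Klf2, Klf3, Klf5, Klf13, Foxj2 and Foxk1. With that threshold 35 members were called in LM1 and 32 in LM9, beside 9996 and 10443 of 18176 genes, and 15 of the 44 and 20 of all 55 lost a call in at least 1 line. Sox10 gained a call in LM1 under edgeR, DESeq2, library totals, the replicate block, and without LM9 replicate 1 or 3. Library totals removed the calls of Klf2, Klf6, Klf13 and Foxj2 in LM1 and of Sox12, Klf5, Tbx2 and Foxk1 in LM9, and added Foxk1 in LM1 (0.26, adjusted p = 0.00515) and Foxn3 in LM9 (0.84, adjusted p = 0.0371), beside the shift of all genes by that scaling. The fit of only the groups compared added Klf3, Klf5, Klf15 and Foxn3 in LM1 and removed Klf3, Klf4, Klf5 and Foxk1 in LM9. Without LM9 replicate 2, Klf2 and Foxo1 gained a call in LM9 and Foxn3 in LM1. Foxk1 moved from −0.34 in LM9 to 0.01 with library totals (adjusted p = 0.855). The median of all genes in LM9 moved from 0.13 to 0.49 under that scaling, and the cause of the Foxk1 move was not tested. With a mean of at least 5 CPM, 36 members were tested, and 32 changed in LM1, 30 in LM9 and 14 between LM1 and LM9, against 84.3%, 84.7% and 39.4% of all genes under that filter. Between LM1 and LM9, DESeq2 called 16, against 33.9% of all genes, and library totals 17 (15 higher in LM1), against 28.8% (21.8% higher in LM1), and the cause was not tested. With each library left out in turn the calls ran from 48 to 54 in LM1, 44 to 52 in LM9, 0 to 41 between LM1 and LM9, 0 to 0 between LM1KO and LM9KO, and 0 to 35 in the interaction, where 41 and 35 came without LM9 replicate 1. Without it the LM1 and LM9 contrasts had 54 and 52 calls. Counting up to 10 counts as off gave 9 members off in LM1 rather than 5. The replicate numbers were not shared in any way the data show. Deviations from the group means had correlations of −0.160 to 0.0903 between same-numbered libraries, and the replicate block gave 50, 48, 0, 0 and 0 calls in the 5 contrasts. Counts are few for members at or below about 1 CPM, such as Gata6, Tbx1, Tbx3, Sox8, Sox10, Klf15, Foxd2 and Foxj1.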
